A study of Mus musculus with 27 samples.

Results

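AP-1 is a family of dimeric transcription factors made of Fos and Jun proteins, and its 7 genes, Fos, Fosb, Fosl1, Fosl2, Jun, Junb and Jund, were followed on the ribosomes of striatal neurons after repeated cocaine. The members were taken as listed gene symbols, each represented by the probe set with the highest mean over 27 arrays. All 7 had a probe set among 18193 genes on the array, and 6 of the 7 passed the filter on low values together with 12017 genes in all. To pass, a gene had to exceed a log2 level of 6 on no fewer than 3 arrays. Fosl1 did not reach it.

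The arrays hold messenger RNA that came down with a GFP-tagged ribosomal protein (translating ribosome affinity purification, TRAP), from striatal tissue of males, 2 to 5 months old, whose background mixed C57BL/6 and 129/Sv. The tag was carried by neurons that express the dopamine receptor D1 (Drd1-TRAP) or D2 (Drd2-TRAP), the main projection neurons of the striatum. All animals, controls too, had a floxed G9a gene (Ehmt2), whose enzyme methylates lysine 9 of histone H3. In mutants this came with Drd1-Cre with the D1 tag or Drd2-Cre with the D2 tag, and controls had no Cre, so that the mutant and control groups also differ in the Cre transgene. Drd2 is also used by cholinergic interneurons, so a Drd2-driven tag is not limited to projection neurons. Mice received cocaine at 20 mg/kg/day or saline as 8 injections and were taken 2 h after the last one. The groups were D1 mutants with cocaine (4 arrays) and saline (3), D1 controls with cocaine (4) and saline (2), D2 mutants with cocaine (4) and saline (3), and D2 controls with cocaine (4) and saline (3). The titles of the D2 mutants name the tag only as Drd-TRAP, and 1 of them, cocaine replicate 4, is named a control in its source field. Its title was followed.

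Fos proteins pair with Jun proteins through leucine zippers and bind DNA as heterodimers, whereas Jun proteins can also pair with each other. In striatal neurons, dopamine and glutamate signals reach the Fos and Jun genes through cyclic AMP and MAP kinases, which act on CREB and on the serum response factor with its Elk partners, and the transcripts are usually short-lived. Fosb also gives rise to deltaFosB, a truncated and stable protein known to build up in D1 neurons over repeated cocaine. The probe set annotation does not say which Fosb splice forms it reads.

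The stretches before the transcription start in the promoter table are shown for 5 members because they hold, or lack, the short elements through which CREB-type and AP-1-type factors are known to act on these genes. They come from RefSeq on GRCm38.p6, whose promoter table held 6 of the 7 members and not Fosl1. Capitals mark a TGACG element or a match to TGACNTCA. Each is written 5′ to 3′ on the gene's own strand, at chr12:85473640-85473889 (plus strand) for Fos, chr7:19310088-19310117 (minus) for Fosb, chr8:84978749-84978998 (minus) for Junb, chr4:95052223-95052472 (minus) for Jun and chr5:32136222-32136471 (plus) for Fosl2. For Fosb only 30 bases around the match are given, because the start used by the table lies inside the annotated span of the gene, which ends at position 19310118. These 30 bases and their match lie inside that span too.
Fos: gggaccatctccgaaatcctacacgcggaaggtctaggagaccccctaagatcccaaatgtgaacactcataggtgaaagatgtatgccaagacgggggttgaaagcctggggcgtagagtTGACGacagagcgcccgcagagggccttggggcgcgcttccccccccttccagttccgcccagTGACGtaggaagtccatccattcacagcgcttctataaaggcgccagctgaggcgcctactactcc
Fosb: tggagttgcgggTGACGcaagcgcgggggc
Junb: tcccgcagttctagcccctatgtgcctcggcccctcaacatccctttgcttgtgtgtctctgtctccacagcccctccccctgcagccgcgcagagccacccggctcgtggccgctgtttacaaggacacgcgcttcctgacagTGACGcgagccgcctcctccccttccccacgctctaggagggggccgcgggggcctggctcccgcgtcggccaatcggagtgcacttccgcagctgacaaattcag
Jun: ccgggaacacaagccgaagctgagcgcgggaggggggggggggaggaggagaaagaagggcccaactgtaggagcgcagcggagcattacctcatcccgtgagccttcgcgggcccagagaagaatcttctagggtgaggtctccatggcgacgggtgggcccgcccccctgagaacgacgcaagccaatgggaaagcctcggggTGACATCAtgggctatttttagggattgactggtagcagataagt
Fosl2: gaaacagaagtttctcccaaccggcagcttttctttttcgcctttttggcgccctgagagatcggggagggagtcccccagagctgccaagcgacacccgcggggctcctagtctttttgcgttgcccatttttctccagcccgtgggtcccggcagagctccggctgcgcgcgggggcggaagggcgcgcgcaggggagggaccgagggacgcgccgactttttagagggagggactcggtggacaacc
Both strands of the 250 bases before the start were searched for 4 motifs. These were the core TGACG of the cyclic AMP response element, TGACNTCA, the AP-1 site TGANTCA, and the CArG box of the serum response factor. TGACNTCA is the cyclic AMP response element in full only with G at the free position, N. A TGACNTCA match with G at the free position holds a TGACG and would count under both. TGACG was found in Fos, 129 and 66 bases before the start, in Fosb, 60 bases before the start of the table and within the annotated gene, and in Junb, 106 bases before it. Jun held TGACATCA, a match to TGACNTCA, 45 bases before its start, and neither Fosl2 nor Jund held any of the 4 motifs in this window. Of 32851 promoter windows of the same length, 17.8% held the TGACG core, 7.49% a TGACNTCA match, 6.75% the AP-1 site and 1.47% the CArG box. These matches describe letters in a window, elements farther from the start were not searched, and no binding was measured.

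Array medians lay between 5.70 and 5.82 log2, and arrays of a group correlated with each other at 0.971 or more, with a lowest pair per array of up to 0.993. Ehmt2, the targeted gene, lay between 8.03 and 9.37 log2 in D1 mutants, against 9.95 to 10.74 in D1 controls, and between 8.68 and 9.38 in D2 mutants, against 10.67 to 11.01 in D2 controls. The mean level of 10 D1 neuron markers was 10.17 to 10.93 log2 in D1 arrays and 7.45 to 8.13 in D2 arrays. For the 7 D2 neuron markers on the array it was 6.99 to 7.37 in D1 arrays and 10.76 to 11.21 in D2 arrays. Ttr, a choroid plexus transcript, exceeded 9.5 log2 in 3 arrays, which were D1 mutant saline replicate 3, D1 control cocaine replicate 3 and D2 control cocaine replicate 3.

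Cocaine raised 4 of the 6 tested AP-1 genes when its effect was averaged over the 4 combinations of subtype and genotype. The comparison asks which AP-1 transcripts differ between cocaine and saline mice, on the ribosomes of these neurons, after repeated injections. All groups had the same number of injections and the same time after the last one. The effect of repetition was thus not tested apart from that of the last dose. Fos, the prototype immediate early gene, had the largest change of the members, 2.00 on the log2 scale (SE 0.22, or 4.01-fold, adjusted p = 7.71e-06 by limma). Fosl2, which encodes a Fos protein without the transactivation domain of Fos, rose by 1.05 (SE 0.19, adjusted p = 0.00354). Junb, a Jun protein with weaker activating capacity than Jun, rose by 0.84 (SE 0.17, adjusted p = 0.0132), and Fosb by 0.79 (SE 0.17, adjusted p = 0.0208). Across all genes tested, 0.649% rose in this average. The median change of the 6 members was 0.81, against 0.0047 over all genes. Jun changed by 0.35 (SE 0.11, adjusted p = 0.168) and Jund by 0.07 (SE 0.06, adjusted p = 0.763), and neither passed. Fosb lost its call when D1 control saline replicate 1 (0.76, adjusted p = 0.0813) or replicate 2 (0.82, adjusted p = 0.0636) was left out, and Junb lost it without D1 control saline replicate 2 (0.79, adjusted p = 0.0702), whereas Jun passed without D1 control cocaine replicate 3 (0.40, adjusted p = 0.0183). In bulk samples such as these, fewer cells with a transcript and less of it per cell cannot be told apart.

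**Figure D1:**
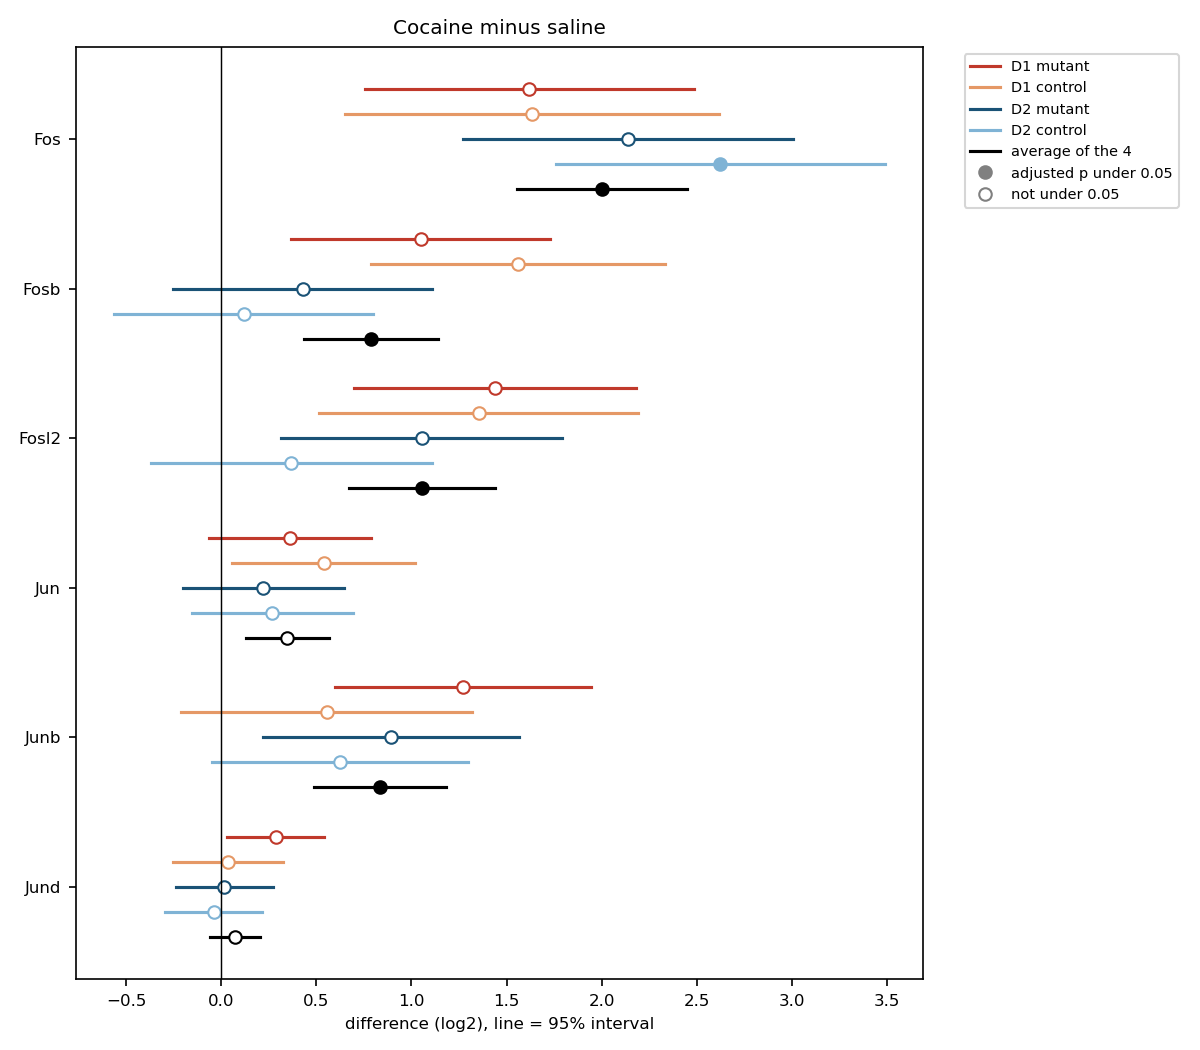
Cocaine minus saline (log2 difference, horizontal axis) of the 6 tested AP-1 genes in D1 mutants, D1 controls, D2 mutants and D2 controls and as the average of the 4. Points are limma estimates, lines 95% intervals, and filled points have an adjusted p under 0.05: these are the averages of Fos (2.00), Fosb (0.79), Fosl2 (1.05) and Junb (0.84), and Fos in D2 controls (2.62).

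Within single groups the same test left 1 call. In D1 mutants 0 of 6 members passed in limma, against 0.0832% of all genes that rose, although 5 had an unadjusted p under 0.05, as did 1412 of 12017 genes. In D1 controls 0 of 6 passed, against 0.0666% of all genes, with 4 at an unadjusted p under 0.05, as were 1402 of 12017 genes. In D2 mutants 0 of 6 passed, against 0% of all genes, with 3 at an unadjusted p under 0.05, as were 588 of 12017 genes. In D2 controls Fos alone of the 6 rose, against 0.0166% of all genes. The median change of the 6 members was 1.16 in D1 mutants, 0.95 in D1 controls, 0.66 in D2 mutants and 0.32 in D2 controls, against medians over all genes of 0.04, 0.03, 0.0036 and -0.05. The 11 marker lists held 54 tested genes, none of them from the blood list. None of the 54 passed in the cocaine comparisons of D1 mutants, D1 controls or D2 mutants or in the average. In D2 controls 1 passed: Zfp521, a D1 neuron marker, fell by 0.42 (adjusted p = 0.0351).

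**Figure D2:**
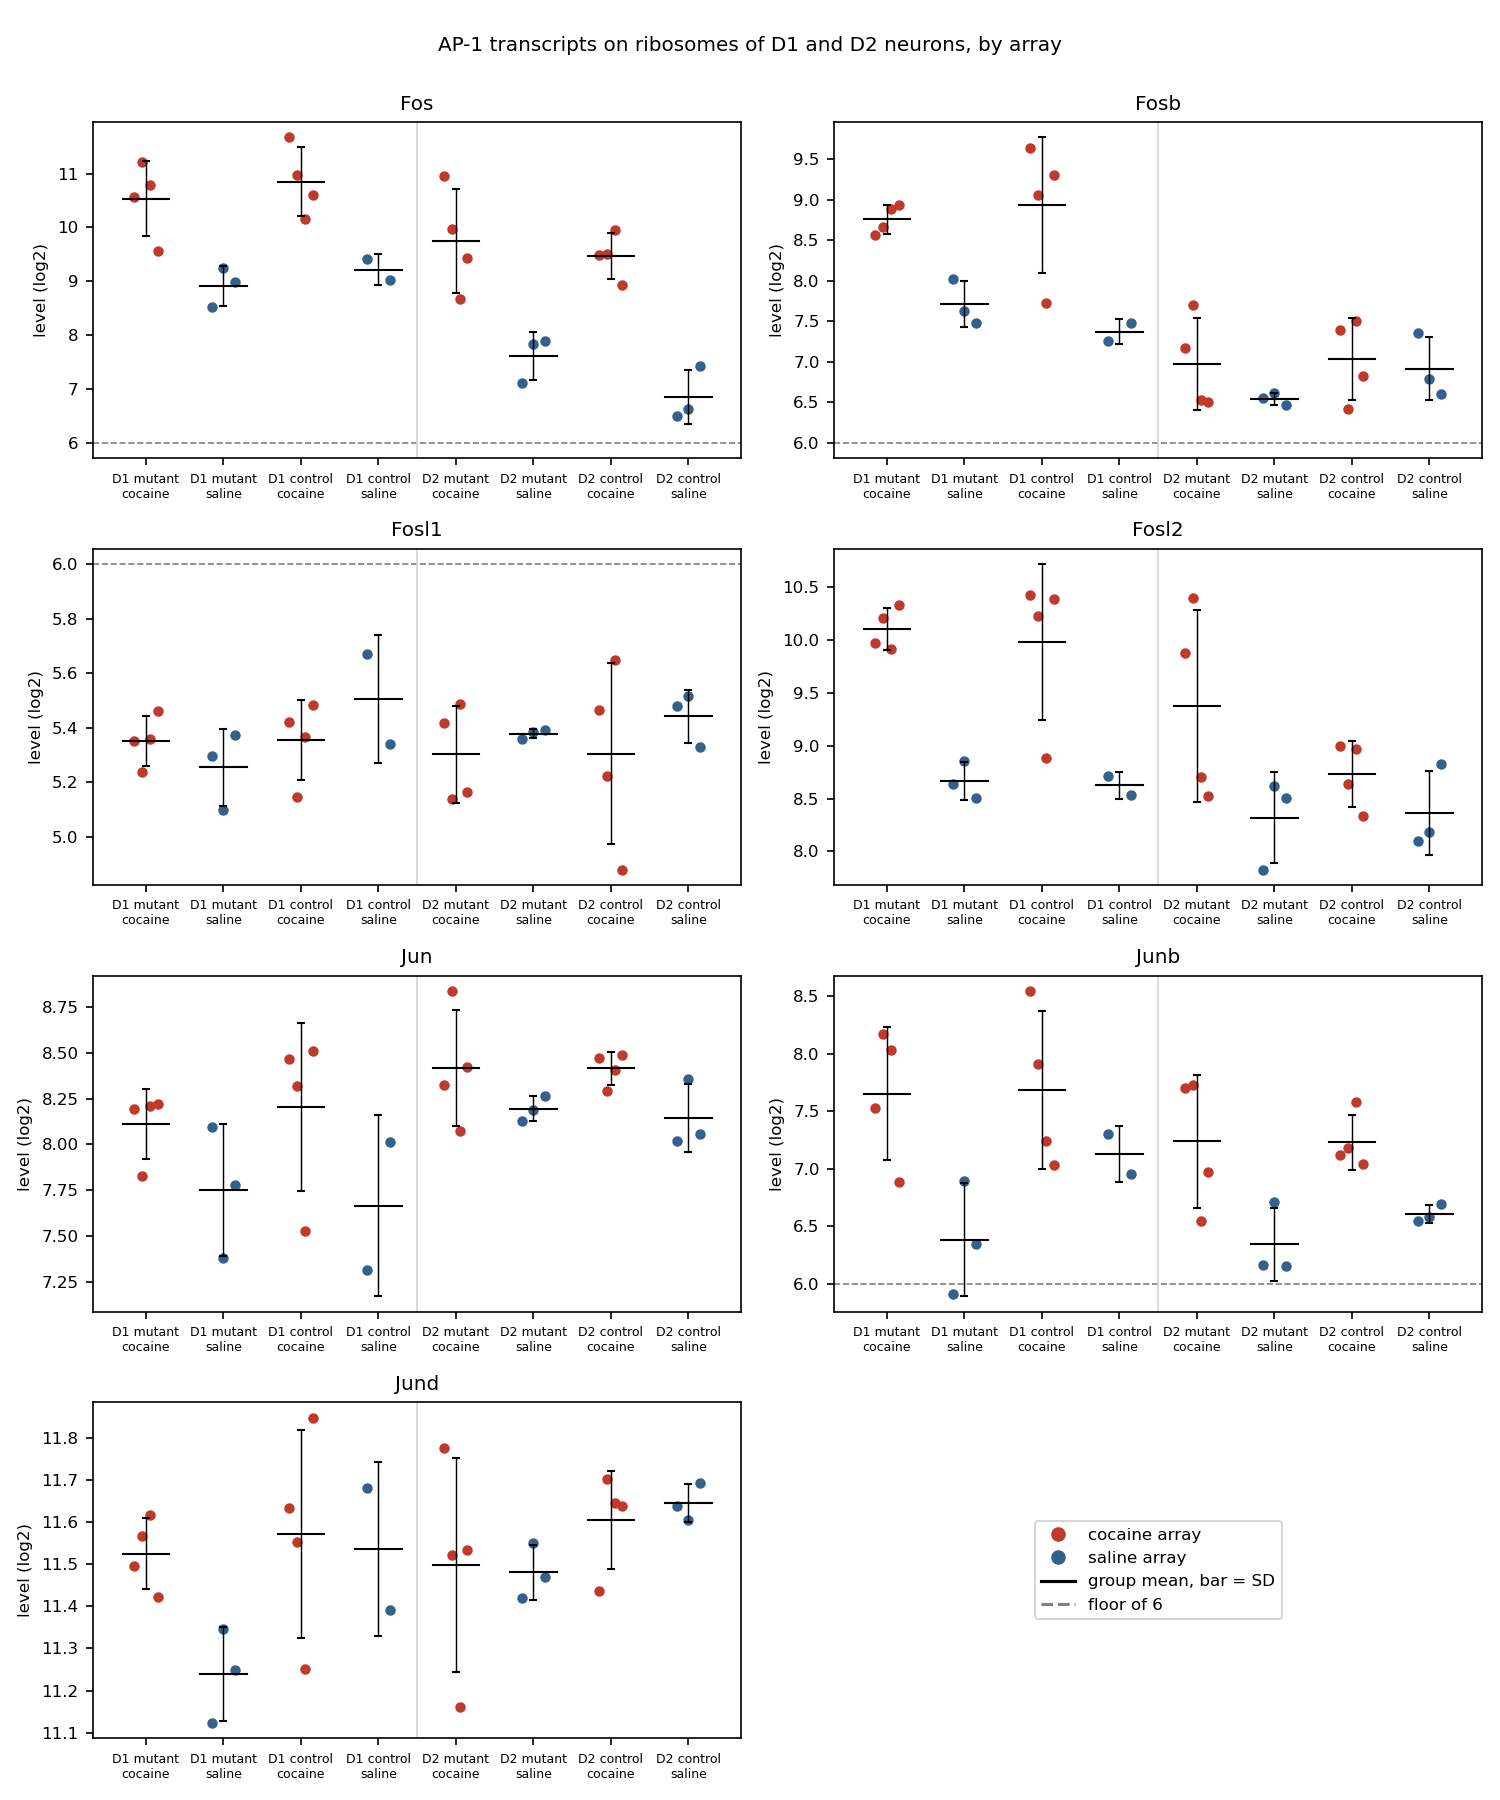
Level (log2, vertical axis) of each AP-1 gene on every array, with cocaine arrays in red and saline arrays in blue. Bars give the group mean and SD, and the dashed line marks the floor of 6. Fos lay higher in every cocaine array than in every saline array of the same subtype and genotype, whereas Fosl1 stayed below the floor on all 27 arrays.

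Fos levels were 10.57, 11.22, 10.79 and 9.56 log2 in D1 mutants with cocaine, against 8.52, 9.25 and 8.99 in D1 mutants with saline, a difference of 1.62 (SE 0.42, adjusted p = 0.115). In D1 controls they were 11.67, 10.98, 10.15 and 10.60 with cocaine and 9.42 and 9.02 with saline, a difference of 1.63 (SE 0.48, adjusted p = 0.162). All cocaine arrays of D1 neurons lay above all saline arrays of the same genotype, with the smallest margin in mutants, between 9.56 and 9.25. In D2 mutants Fos read 10.95, 9.96, 8.67 and 9.43 with cocaine and 7.10, 7.84 and 7.89 with saline, a difference of 2.14 (SE 0.42, adjusted p = 0.108). In D2 controls it read 9.5, 9.51, 9.96 and 8.93 with cocaine and 6.49, 6.63 and 7.42 with saline, and rose by 2.62 (SE 0.42, or 6.17-fold, adjusted p = 0.00504). The cocaine and saline arrays of D2 neurons did not overlap within either genotype. The share of all genes without such overlap was not counted, so overlap here and below describes the arrays and is no test. The D2 control call ended without saline replicate 1 (2.45, adjusted p = 0.0836), and the D2 mutant value passed without cocaine replicate 3 (2.50, adjusted p = 0.0168).

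By group mean, Fos was highest in D1 controls with cocaine (10.85 ± 0.64, SD, n = 4), followed by D1 mutants with cocaine (10.54 ± 0.70, n = 4), D2 mutants with cocaine (9.75 ± 0.96, n = 4), D2 controls with cocaine (9.47 ± 0.42, n = 4), D1 controls with saline (9.22 ± 0.28, n = 2), D1 mutants with saline (8.92 ± 0.37, n = 3), D2 mutants with saline (7.61 ± 0.44, n = 3) and D2 controls with saline (6.85 ± 0.50, n = 3). The arrays of neighbouring groups overlapped at each step of this order except between D1 and D2 mutants with saline. The D2 groups with cocaine thus reached the range of the D1 groups with saline.

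Fosb levels were 8.56, 8.66, 8.88 and 8.94 log2 in D1 mutants with cocaine and 8.03, 7.63 and 7.47 with saline, a difference of 1.05 (SE 0.33, adjusted p = 0.211). In D1 controls they were 9.64, 9.05, 7.73 and 9.31 with cocaine and 7.26 and 7.48 with saline, a difference of 1.56 (SE 0.37, adjusted p = 0.105). No D1 cocaine array overlapped the saline arrays of its genotype, and cocaine replicate 3 of the controls was the lowest of its group. Without that array the D1 control value passed (1.96, adjusted p = 0.00448). Fosb in D2 mutants was 7.16, 7.70, 6.53 and 6.50 with cocaine and 6.55, 6.61 and 6.47 with saline, a difference of 0.43 (SE 0.33, adjusted p = 0.996). In D2 controls it was 7.39, 6.42, 7.50 and 6.82 with cocaine and 7.35, 6.79 and 6.61 with saline, a difference of 0.12 (SE 0.33, adjusted p = 0.957). Cocaine and saline arrays of D2 neurons overlapped in both genotypes.

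In the order of Fosb group means, both D1 cocaine groups came first (8.93 ± 0.84 in controls and 8.76 ± 0.18 in mutants, SD, n = 4 each), then the D1 saline groups (7.71 ± 0.28 in mutants, n = 3, and 7.37 ± 0.15 in controls, n = 2) and then the 4 D2 groups, between 6.54 and 7.03. Neighbours in this order overlapped except D1 mutants with cocaine and D1 mutants with saline.

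Fosl2 read 9.97, 10.21, 9.91 and 10.33 log2 in D1 mutants with cocaine and 8.64, 8.86 and 8.51 with saline, a difference of 1.44 (SE 0.36, adjusted p = 0.103). In D1 controls it read 10.43, 10.22, 8.88 and 10.39 with cocaine and 8.72 and 8.54 with saline, a difference of 1.35 (SE 0.41, adjusted p = 0.185). Cocaine and saline did not overlap in D1 neurons, but cocaine replicate 3 of the controls stood only just above saline. Without that array the difference passed in D1 controls (1.72, adjusted p = 0.0334) and, through the shared estimate of spread, in D1 mutants (1.44, adjusted p = 0.0429). Fosl2 in D2 mutants was 9.88, 10.40, 8.70 and 8.52 with cocaine and 7.83, 8.62 and 8.51 with saline, a difference of 1.05 (SE 0.36, adjusted p = 0.82). In D2 controls it was 8.99, 8.64, 8.97 and 8.34 with cocaine and 8.10, 8.18 and 8.82 with saline, a difference of 0.37 (SE 0.36, adjusted p = 0.827). The D2 arrays overlapped in both genotypes, and in D2 mutants cocaine replicates 1 and 2 stood above the others. A second Fosl2 probe set, with levels from 6.39 to 7.04, differed by 0.21 in the average of the 4 (adjusted p = 0.0761 among 20136 probe sets) and did not pass.

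Fosl1, which encodes another Fos protein without the transactivation domain, lay between 4.88 and 5.67 log2 on its brighter probe set and between 3.96 and 4.91 on the other. Both stayed below the floor on every array, so it was not tested.

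Junb read 7.53, 8.17, 8.03 and 6.88 log2 in D1 mutants with cocaine and 5.91, 6.89 and 6.34 with saline, a difference of 1.27 (SE 0.33, adjusted p = 0.115). In D1 controls it read 8.55, 7.91, 7.24 and 7.03 with cocaine and 7.30 and 6.96 with saline, a difference of 0.55 (SE 0.37, adjusted p = 0.611). The arrays overlapped in both D1 genotypes, in mutants only through the lowest cocaine and the highest saline array. Junb in D2 mutants was 7.70, 7.73, 6.55 and 6.97 with cocaine and 6.17, 6.71 and 6.16 with saline, a difference of 0.89 (SE 0.33, adjusted p = 0.96). In D2 controls it was 7.12, 7.18, 7.58 and 7.05 with cocaine and 6.55, 6.58 and 6.69 with saline, a difference of 0.62 (SE 0.33, adjusted p = 0.57). Every D2 control cocaine array lay above the saline arrays, while the D2 mutant arrays overlapped.

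Jun, the founding Jun protein and a strong activator, ranged from 7.32 to 8.84 log2 over all arrays. It was 8.19, 7.83, 8.21 and 8.22 in D1 mutants with cocaine and 8.10, 7.38 and 7.78 with saline, a difference of 0.36 (SE 0.21, adjusted p = 0.508). In D1 controls it was 8.46, 8.32, 7.53 and 8.51 with cocaine and 7.32 and 8.01 with saline, a difference of 0.54 (SE 0.23, adjusted p = 0.358). The arrays overlapped in both genotypes, as they did in D2 neurons, where the differences were 0.22 in mutants (SE 0.21, adjusted p = 0.996) and 0.27 in controls (SE 0.21, adjusted p = 0.75). D2 arrays of Jun were 8.33, 8.84, 8.08 and 8.42 with cocaine and 8.13, 8.19 and 8.26 with saline in mutants, and 8.47, 8.29, 8.40 and 8.49 with cocaine and 8.02, 8.36 and 8.06 with saline in controls. The second Jun probe set gave an average difference of 0.42 (adjusted p = 0.194 among 20136 probe sets).

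Jund, known as the broadly and steadily expressed Jun gene, varied least among the tested members, from 11.12 to 11.85 log2 over all 27 arrays. In D1 mutants it was 11.50, 11.57, 11.62 and 11.42 with cocaine and 11.12, 11.35 and 11.25 with saline, a difference of 0.29 (SE 0.12, adjusted p = 0.358), and the arrays did not overlap. In D1 controls (0.04), D2 mutants (0.02) and D2 controls (-0.04) the differences were smaller than their SEs of 0.14, 0.12 and 0.12, and the arrays overlapped.

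RNA quality, taken as the 3′ minus 5′ log2 difference of Gapdh and Actb control probe sets, was 2.17 to 2.90 in D1 controls with cocaine and 1.96 to 2.01 in D1 controls with saline. In the other cocaine comparisons its ranges overlapped. With this measure as a covariate the D1 control difference was 1.18 for Fos, 1.32 for Fosb and 1.03 for Fosl2, and the 4 members that rose in the average rose there too.

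The cocaine effect itself was compared between genotypes and between subtypes, since a pass in one group and not in another does not show a difference. Between mutants and controls, 0 of 6 members differed in D1 neurons and 0 of 6 in D2 neurons by limma, against 0% of all genes in each. None of the 6 had an unadjusted p under 0.05, while 1340 of 12017 genes did in D1 neurons and 583 in D2 neurons. For Fos the difference of effects (mutant minus control) was -0.02 (95% interval -1.32 to 1.29) in D1 neurons and -0.49 (-1.71 to 0.74) in D2 neurons. For Fosb it was -0.51 (-1.54 to 0.52) in D1 neurons and 0.31 (-0.65 to 1.27) in D2 neurons. For Junb it was 0.72 (-0.30 to 1.74) in D1 neurons and 0.27 (-0.68 to 1.22) in D2 neurons. For Fos in D1 neurons the interval reached beyond 1 log2 unit in each direction, so the data do not show that the effects are alike.

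Between subtypes, 0 of 6 members differed in their cocaine effect in mutants, against 0% of all genes. None of the 6 had an unadjusted p under 0.05, while 565 of 12017 genes did. In controls 0 of 6 passed, against 0.141% of all genes, and 1 had an unadjusted p under 0.05, as did 1596 of 12017 genes. The 1 member was Fosb, whose cocaine effect was larger in D1 than in D2 controls by 1.44 (95% interval 0.41 to 2.47, adjusted p = 0.195). Without D1 control cocaine replicate 3 that difference was 1.84 and passed (adjusted p = 0.0329). In mutants the Fosb difference was 0.62 (-0.34 to 1.58). For Fos the difference (D1 minus D2) ran the other way, -0.99 (-2.30 to 0.32) in controls and -0.52 (-1.74 to 0.70) in mutants, and did not pass.

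Saline levels by subtype ask which AP-1 transcripts differ between D1 and D2 neurons without the drug. Fos was higher in D1 neurons in both genotypes. In mutants the saline levels given above, 8.52, 9.25 and 8.99 in D1 and 7.10, 7.84 and 7.89 in D2 neurons, differed by 1.31 (SE 0.45, or 2.47-fold, adjusted p = 0.0358), and in controls those of 9.42 and 9.02 in D1 and 6.49, 6.63 and 7.42 in D2 neurons differed by 2.37 (SE 0.50, or 5.17-fold, adjusted p = 0.00196). The D1 and D2 arrays did not overlap in either genotype. Fosb was also higher in D1 mutants, by 1.16 (SE 0.35, adjusted p = 0.0182), with no overlap, whereas in controls the difference was 0.45 (SE 0.39, adjusted p = 0.481) with overlap. In all, 2 of 6 members were higher in D1 neurons of mutants, against 8.26% of all genes, and 1 of 6 in controls, against 4.93% of all genes. Whether the subtype difference itself differs between genotypes was not tested.

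The Fos call in controls held without any single array, with differences from 2.17 to 2.66. In mutants it ended without D1 saline replicate 2 (1.14, adjusted p = 0.109) or 3 (1.27, adjusted p = 0.0883), or without D2 saline replicate 1 (1.05, adjusted p = 0.146), 2 (1.42, adjusted p = 0.0571) or 3 (1.45, adjusted p = 0.0513). The Fosb call ended without D1 saline replicate 1 (1.01, adjusted p = 0.0799) or D2 saline replicate 3 (1.13, adjusted p = 0.0552).

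Jun ran in the other direction without passing. Its saline arrays in D1 neurons lay below those in D2 neurons in mutants, by -0.44 (SE 0.22, adjusted p = 0.149), and in controls, by -0.48 (SE 0.25, adjusted p = 0.197). On the second Jun probe set the difference was -0.86 in mutants (adjusted p = 0.0257 among 20136 probe sets) and -0.57 in controls (adjusted p = 0.237), so the probe sets differ on whether Jun passed in mutants. Fosl2 differed by 0.35 and 0.26, Junb by 0.04 and 0.52 and Jund by -0.24 and -0.11 in mutants and controls, none of which passed.

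**Figure D3:**
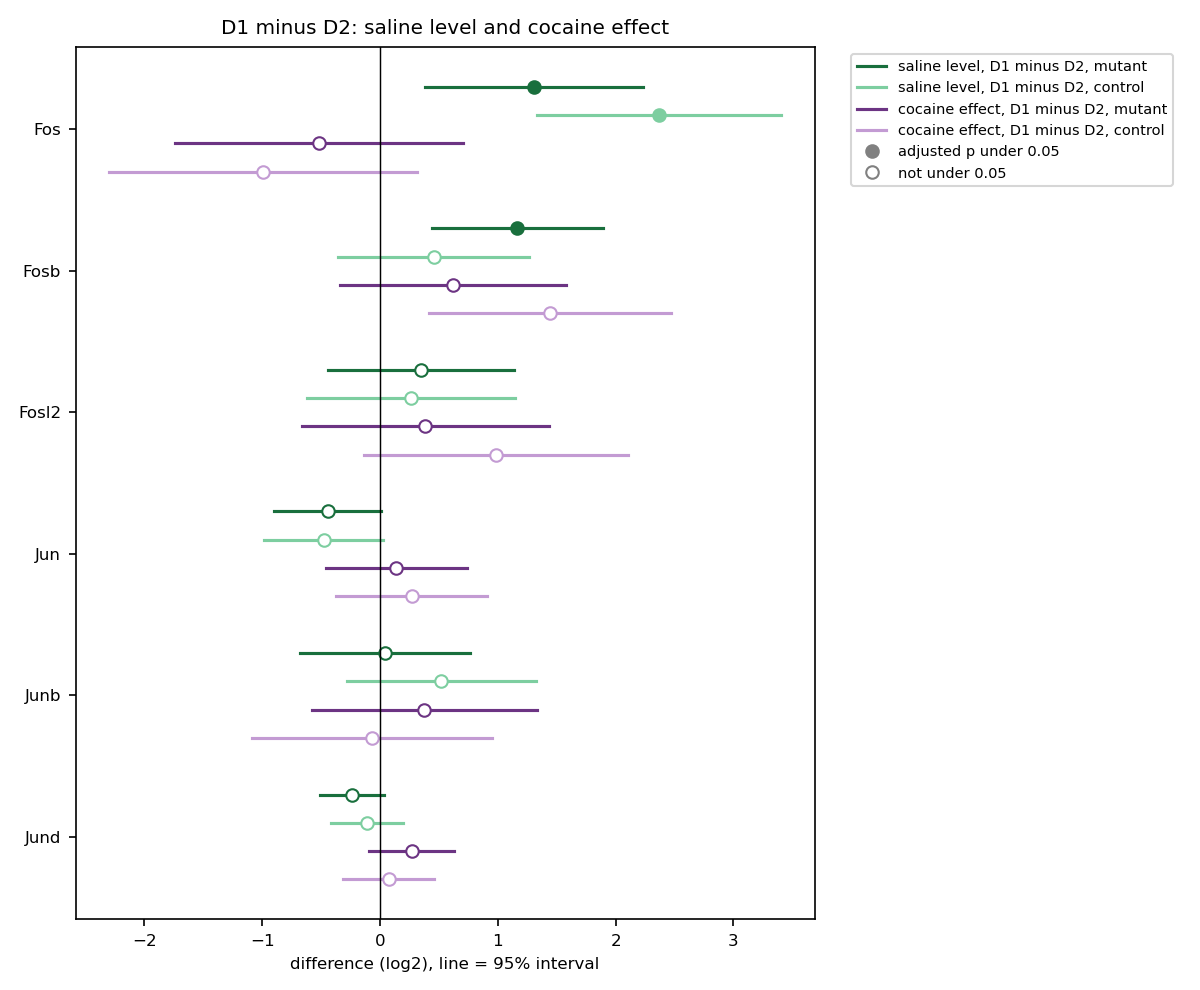
D1 minus D2 (log2, horizontal axis) of the saline level and of the cocaine effect, in mutants and in controls, for the 6 tested AP-1 genes. Points are limma estimates, lines 95% intervals, and filled points have an adjusted p under 0.05: Fos saline levels in both genotypes (1.31 and 2.37) and Fosb saline levels in mutants (1.16).

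Markers of other cells, and those shared by projection neurons, moved with the subtype comparison. Shared projection neuron markers (9 of 10 on the array) averaged 12.05 to 12.19 log2 in D1 and 12.34 to 12.45 in D2 mutants with saline. In controls with saline they averaged 12.22 to 12.28 in D1 and 12.39 to 12.50 in D2 neurons. Ppp1r1b and Ptpn5 were lower and Gad2 was higher in D1 neurons in both genotypes. Rgs9 and Gad1 were lower in D1 mutants and did not pass in controls. Excitatory neuron markers (5 of 6 on the array) averaged 6.05 to 7.53 log2 in D1 and 4.49 to 4.77 in D2 mutants with saline. In controls with saline they averaged 4.84 to 6.58 in D1 and 4.44 to 4.58 in D2 neurons. Of the 3 tested, all 3 were higher in D1 mutants and 0 passed in controls (3 at an unadjusted p under 0.05 in limma). Over all genes, 3566 of 12017 had an unadjusted p under 0.05 in that comparison of controls. In mutants Slc17a6, a vesicular glutamate transporter, was higher in D1 neurons by 2.36 (adjusted p = 9.24e-06) and Neurod6, a neuronal bHLH factor, by 3.38 (adjusted p = 0.00924). Slc17a7, another vesicular glutamate transporter, stayed below the floor and was not tested, at 4.98 to 5.68 in D1 and 4.05 to 4.75 in D2 mutants with saline. Oligodendrocyte markers (9 of 10 on the array) had mean levels of 7.0 to 7.60 in D1 and 8.09 to 8.36 in D2 mutants with saline, and 7.10 to 7.30 in D1 and 7.72 to 7.81 in D2 controls with saline. Of the 8 tested, Cnp, Mbp, Ugt8a, Mag, Mal and Mobp were lower in D1 mutants (adjusted p from 0.000221 to 0.00557 in limma). In controls Mbp, Cnp and Mag were lower in D1 neurons. Of the endothelial and mural markers, Rgs5 (-0.94) was lower in D1 mutants, while Kdr (0.12), Acta2 (-0.10) and Flt1 (-0.08) did not pass. Of the choroid plexus markers, Kl (-0.72) was lower there, while Ttr (0.30) and Clic6 (0.02) did not pass. Neither Rgs5 nor Kl passed in controls. The mean levels of both lists overlapped between D1 and D2 mutants with saline. Kl was also higher in G9a mutants than in controls, by 1.55 in D1 and 2.23 in D2 neurons. Astrocyte markers (9 of 9 on the array) had mean levels of 6.94 to 7.29 in D1 and 6.99 to 7.17 in D2 mutants with saline, and 7.03 to 7.54 in D1 and 6.75 to 6.98 in D2 controls with saline, without overlap in controls. Of the 6 tested, 0 passed in mutants (0 at an unadjusted p under 0.05 in limma), and in controls Aldoc alone was higher in D1 neurons (1.02, adjusted p = 0.00824). Microglial markers (8 of 8) averaged 5.31 to 5.47 in D1 and 5.53 to 5.69 in D2 mutants with saline, and 5.39 to 5.44 in D1 and 5.58 to 5.71 in D2 controls with saline, and 0 of 3 tested passed in either (0 at an unadjusted p under 0.05). Cholinergic interneuron markers (5 of 6 on the array) averaged 4.26 to 4.55 in D1 and 5.68 to 5.76 in D2 mutants with saline, and 4.48 to 4.49 in D1 and 5.10 to 5.54 in D2 controls with saline. The 2 tested, Lhx8 and Slc18a3, were lower in D1 neurons in both genotypes. Chat, Slc5a7 and Gbx2 were not tested. Mean Chat was 4.42 in D1 and 4.45 in D2 mutants and 4.52 in both control groups. Mean Slc5a7 was 4.10 and 5.22 in mutants and 4.21 and 4.57 in controls. RNA quality was 1.96 to 2.01 in D1 and 2.18 to 2.49 in D2 controls with saline, and with it as a covariate the Fos difference was 2.68 (adjusted p = 0.00108) in controls and 1.13 (adjusted p = 0.0748) in mutants. The part of the markers in the Fos and Fosb differences was not tested.

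Between G9a mutants and controls no AP-1 gene was called. Averaged over both drugs, 0 of 6 members differed between D1 mutants and controls, against 4.22% of all genes, and 0 of 6 between D2 mutants and controls, against 12.2%, with none at an unadjusted p under 0.05 in limma. Over all genes, 1593 of 12017 had an unadjusted p under 0.05 in D1 neurons and 3071 in D2 neurons. Fos differed by -0.31 (SE 0.32, 95% interval -0.96 to 0.35) in D1 neurons and by 0.52 (SE 0.30, -0.09 to 1.13) in D2 neurons. For Fosb the differences were 0.08 (-0.43 to 0.60) and -0.22 (-0.70 to 0.27), and for Junb -0.39 (-0.90 to 0.12) and -0.13 (-0.60 to 0.35). Ehmt2 fell by 1.79 in D1 and by 1.82 in D2 mutants.

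Arrays of one group also varied together in some members. After subtracting group means, 15 pairs of the 6 tested members were correlated over 27 arrays, with p from 100000 permutations within groups and adjusted over the 15 pairs. Fos and Junb had the strongest relation, with Pearson's r of 0.85 (p = 1e-05, the smallest the permutations can give, adjusted p = 0.00015) and Spearman's rho of 0.85 (adjusted p = 0.0003), and r was 0.84 without the 2 arrays farthest from the median of Fos. Fos and Fosl2 had r of 0.63 (permutation p = 0.0134, adjusted p = 0.0401) and rho of 0.65 (adjusted p = 0.0191), and r of 0.56 without 2 arrays. Fos and Jund had r of 0.65 (permutation p = 0.00612, adjusted p = 0.0306) and rho of 0.66 (adjusted p = 0.0118), and r of 0.46 without 2 arrays. Fosb went with Fosl2 (r = 0.72, permutation adjusted p = 0.0343; rho = 0.60, adjusted p = 0.0526; r = 0.52 without 2 arrays) and with Jun (r = 0.68, permutation adjusted p = 0.0306; rho = 0.51, adjusted p = 0.0526; r = 0.45 without 2 arrays), and both missed the threshold by rank. Junb and Jund passed by rank (rho = 0.58, permutation adjusted p = 0.0378) and missed it by r (0.49, adjusted p = 0.134). D1 control cocaine replicate 3, low in Fosb, Fosl2 and Jun, was among the 2 arrays left out for both pairs with Fosb. Fos and Jun had r of 0.07 and Jun and Junb of 0.02 (permutation adjusted p = 0.828 and 0.955).

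**Figure D4:**
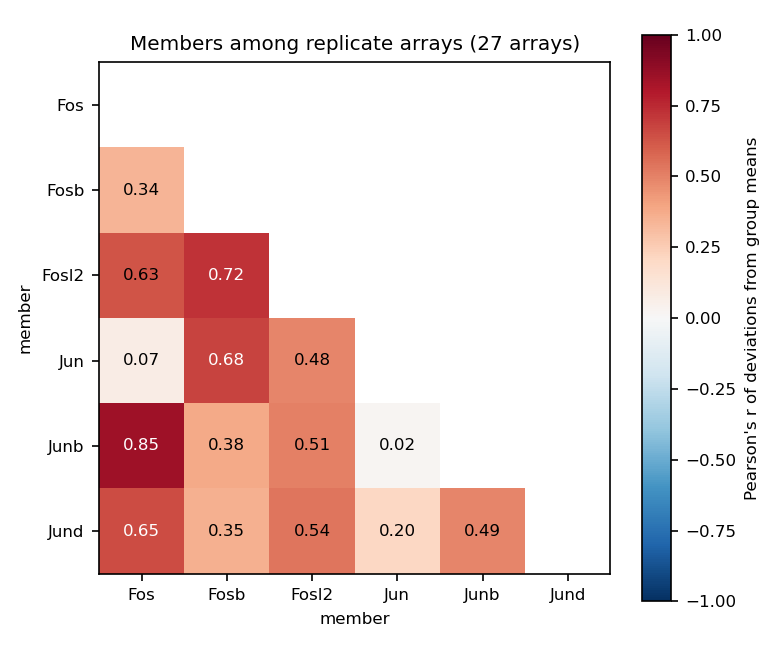
Pearson's r between pairs of the 6 tested AP-1 genes over 27 arrays, after subtracting group means. Red is positive and the number in each cell is r. Fos and Junb (0.85) had the highest value, and Jun had 0.07 with Fos and 0.02 with Junb.

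Outside the family, the genes most like each member were sought by Pearson's r over the 27 arrays, after subtracting the mean of each subtype and genotype so that the cocaine difference was kept. The values are a description of arrays that share the drug contrast. Fos was most like Arc (0.93), a regulator of AMPA receptor endocytosis, followed by Tiparp (0.91), Dusp1 (0.91), a MAP kinase phosphatase, Nr4a1 (0.90), an orphan nuclear receptor, and Egr2 (0.89), a zinc finger factor. Fosl2 was most like Nr4a3 (0.93), Chmp1b (0.93) and Crem (0.93), and Junb most like Dusp1 (0.93), Egr4 (0.92) and Tiparp (0.91). For Fosb the highest were Peli1, Suco and Midn (0.83 each), for Jun they were Dnm1 (0.84), Stard5 (0.83) and Trps1 (0.82), and for Jund they were Rbbp4 (0.78), Dnajb5 (0.77) and Nsa2 (0.75).

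Genes around the family gave the setting of the cocaine average. Of 13 tested other immediate early genes, 8 rose. Those with the smallest p were Nr4a3 (1.57), Arc (1.08), Egr4 (0.67) and Btg2 (0.63), while Nr4a1 (1.21) and Egr2 (1.14), named above, had larger changes than the last 3 of these. The median of the 13 was 0.41, against 0.0047 over all genes. Of 9 tested phosphatases and Jun turnover genes, 2 rose, Dusp1 (0.69, adjusted p = 0.00102) and Dusp14 (0.61, adjusted p = 0.0188), both MAP kinase phosphatases, with a median of 0.31. Of 19 tested upstream kinases and activators, 1 rose, Crem (0.48, adjusted p = 0.0161), a gene of the CREB family that also encodes a repressor, with a median of 0.05. None of 9 tested bZIP partners (such as Atf2 and Jdp2) passed in limma, with 0 at an unadjusted p under 0.05. Nor did any of 10 reported AP-1 targets pass in limma, with 3 at an unadjusted p under 0.05. These 10 include Ehmt2, the gene targeted in the mutants. Over all genes, 1210 of 12017 had an unadjusted p under 0.05 in this average.

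Upstream genes differed by subtype with saline in both genotypes. Rasgrf2, a Ras exchange factor, was higher in D1 than in D2 neurons by 3.05 in mutants and 3.18 in controls, and Rps6ka5 (MSK1), a kinase of CREB and histone H3, by 0.63 and 0.91. Elk1, a partner of the serum response factor, was lower in D1 neurons, at -0.36 in mutants and -0.73 in controls. Of the other immediate early genes, Nptx2 (1.21 in mutants and 0.98 in controls) and Nr4a1 (1.41 and 1.88) were higher in D1 neurons in both genotypes. In mutants Nr4a2 was higher in D1 neurons (4.59, SE 1.14), and Egr1 (-0.47) and Homer1 (-0.44) were lower. The same differences in controls were 2.05 (SE 1.27), -0.16 and 0.13, and did not pass. Mean Nr4a2 was 10.22 in D1 mutants with saline, against 8.29 to 8.56 in the other D1 groups. Whether these subtype differences differ between genotypes was not tested. In D2 neurons, G9a mutants had higher Jdp2, a repressive AP-1 partner, by 0.39 (adjusted p = 0.00215) and lower Elk1, by -0.28 (adjusted p = 0.0126), than controls. In the same comparison Nr4a3 (0.69), Nptx2 (0.39), Rasgrf1 (0.26) and Mapk10 (0.25) were higher in mutants. Crtc1 (-0.29) and Cartpt (-0.33), a reported AP-1 target, were lower there.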

How the data were processed

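The authors deposited log2 values of 45101 probe sets on 27 whole-genome mouse arrays from Affymetrix. Per the submitters' processing notes, RMA (robust multi-array averaging) was run in Expression Console 1.1. For the scans, per the design text, a different program of the maker and a global scaling were used. RNA was amplified with the 2-cycle kit, per the labels' protocols. Of the probe sets, 34945 had 1 gene symbol in the array annotation, 932 several and 9160 none, and 64 were controls. The number of arrays limits the precision.

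One limma model (version 3.58.1, R 4.3.3) took in the 27 arrays and estimated a mean per group for 8 groups, and p-values were adjusted by Benjamini-Hochberg over the 12017 genes tested in each of 13 contrasts. Changed means an adjusted p under 0.05. Intervals are 95% intervals of limma. The labels give separate mice per group, and p-values measure the spread between the arrays of a group. No 2 arrays held identical values. Replicate numbers were not treated as pairs. The fits were tested on simulated data.

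The 7 members, the pathway lists (other immediate early genes, upstream kinases and activators, MAP kinase phosphatases and Jun turnover, bZIP partners, reported AP-1 targets) and the markers were chosen with earlier results of these data known. Genes outside the family could be named when they passed in a contrast (up to 4 a list and contrast, by smallest p). Others are named as the target Ehmt2, or as the most alike by Pearson's r (5 for Fos, 3 for each other member). Not every gene that passed is named. Slc17a7, Slc17a6, Neurod6, Aldoc, Chat, Slc5a7 and Jun's and Fosl2's second probe sets were singled out after their values were seen. Kdr, Acta2, Flt1, Ttr and Clic6 are named to complete the tested part of their marker lists. Alternatives covered the probe set, the filter, the normalization, the moderation, array weights, the arrays fitted, a replicate block, RNA quality, a doubtful label, arrays with high Ttr, a minimum fold of 1.5 and each array left out in turn. Raw array images were not used here.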

Additional observations from a re-analysis of the deposited data

Results flagged for a closer look

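Of 28 groups of 4 arrays examined over the members, 2 held an array far from the others, where chance gives about 1 in 20. Fosl2 in D1 controls with cocaine was 8.88 log2 in replicate 3, and the nearest of the other arrays was 10.22. Jun in D1 mutants with cocaine was 7.83 log2 in replicate 2, and the nearest of the others was 8.19.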

How the results depend on the processing

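The 4 members called in the cocaine average were all called under each of the 14 alternatives that leave out no single array, where the count was 4 or 5. The counts that moved by over 1.5 times were those of cocaine in D1 mutants, D1 controls and D2 mutants, of both saline comparisons by subtype and of the D1 minus D2 cocaine effect in controls. The count over all genes under the same alternative follows each. With limma's array weights, 4 members passed in D1 mutants (218 genes), 4 in D1 controls (461), 1 in D2 mutants (10), and 1 (Fosb, 1.79) in the D1 minus D2 difference of the cocaine effect in controls (595, against 17 without weights). The weights gave D1 control cocaine replicate 3 the lowest weight (0.165). With only the arrays of the groups compared, 2 passed in D1 mutants (22) and 2 in the D1 minus D2 saline comparison of controls (2351). Without the 3 arrays with high Ttr, 2 passed in D1 controls (69), 1 in the D1 minus D2 saline comparison of mutants (2591), where Fos was lost (1.27, adjusted p = 0.0703), and 1 in the difference of the cocaine effect in controls (24; Fosb, 2.00, adjusted p = 0.0406). With a trend and robust moderation, 1 passed in the saline comparison of mutants (2845). With RNA quality as a covariate that comparison kept a count of 2, but called Fosb and Jund (-0.33, adjusted p = 0.0359). The cause of these changes was not tested.

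Deviations of same-numbered arrays from their group means correlated at r from -0.39 to 0.47 (35 pairs, median 0.01, 11 above 0.1). Differently numbered arrays were not set beside them, so these values cannot decide whether the numbers pair the samples. With the replicate block, 1 member passed in D1 mutants with cocaine against saline (31 genes; Junb, 1.51, adjusted p = 0.041), and the block changed no other count of members. The saline comparisons of D1 with D2 could not be fitted with the block, because the numbers are nested in subtype.

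Leaving out each array in turn, the count of members called ranged from 2 to 5 in the cocaine average (43 to 136 over all genes), 0 to 1 in D1 mutants (3 to 43), 0 to 2 in D1 controls (0 to 70), 0 to 1 in D2 mutants (0 to 5), 0 to 1 in D2 controls (2 to 48), 0 to 2 in the saline comparison of mutants (2062 to 3342), 1 to 1 in that of controls (652 to 2383) and 0 to 1 in the D1 minus D2 cocaine effect in controls (0 to 156). Where 1 D1 control saline array remained, it was assumed to vary like the other groups.

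Signs turned in uncalled values near 0. The Jund cocaine difference in D1 controls was -0.043 with cyclic loess, -0.20 with RNA quality and -0.11 to 0.181 without single arrays. In D2 controls it was 0.039, 0.0521 and -0.0722 to 0.0161. In D2 mutants it was -0.0757 to 0.129 without single arrays. The Jund saline difference (D1 minus D2) in controls was 0.0611, 0.0537 and -0.255 to 0.036. The Fosb cocaine difference in D2 controls was -0.037 without the arrays with high Ttr and -0.0375 to 0.336 without single arrays. The Junb saline difference in mutants was -0.216 to 0.274 without single arrays.

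Over all genes, under the alternatives that leave out no single array, calls ranged from 23 to 285 in the cocaine average (96 in the analysis reported), 6 to 218 in D1 mutants (11), 0 to 461 in D1 controls (8), 0 to 10 in D2 mutants (0), 1 to 124 in D2 controls (16), 1036 to 4029 and 890 to 3452 in the saline comparisons of mutants (2847) and controls (1962), and 199 to 969 and 317 to 2293 in the G9a comparisons of D1 (507) and D2 neurons (1470).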
